A study of Mus musculus with 6 samples.

Results

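The genes described here encode the machinery that presents intracellular peptides on MHC class I molecules. They are 10 genes of the 24457 listed for each library, and they were chosen by gene symbol: H2-K1, H2-D1, B2m, Tap1, Tap2, Tapbp, Psmb8, Psmb9, Psmb10 and Nlrc5. RNA was sequenced from thymic endothelial cells (ECs) of wild-type female C57BL/6 mice aged 4 to 6 weeks. The ECs were sorted by flow cytometry from digested thymus as CD31+CD45-EpCAM- cells and then split by 2 surface proteins, Ly6C and P-selectin (Selp), into type I ECs (Ly6C+Selp-), type II ECs (Ly6C+Selp+) and type III ECs (Ly6C-Selp+). Type III ECs were of interest as a candidate gate for progenitors that enter the thymus. Each subset had 2 libraries, 6 in all, and the labels give no other difference between the groups. The sources used here do not state whether the libraries of a subset came from different animals or from pooled thymi, so p-values measure only the spread between these libraries, which may be technical.

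In the class I pathway, proteasomes cut cytosolic proteins into peptides, the TAP transporter carries the peptides into the endoplasmic reticulum, and chaperones load them onto a heavy chain paired with beta2-microglobulin. Cells that meet interferon replace the catalytic subunits of the standard proteasome with those of the immunoproteasome, and the transactivator NLRC5 drives many of these genes together. Endothelial cells display class I at the vessel wall, where circulating CD8+ T cells can read it, and in the thymus class I on several cell types takes part in the selection of CD8+ T cells.

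All 10 genes were expressed in all 6 libraries, and in none of the 3 comparisons between subsets did any of them pass the test. Levels are given as FPKM, fragments per kilobase of transcript relative to the mapped fragments of the library, so that genes of different length can be compared. Estimated fragments per library, read back from the bounds of the deposited intervals, ranged from 1452476 to 2423171. Differences are given as log2 fold changes of FPKM + 1, fitted with limma over the 11717 genes that reached an FPKM of 1 in 2 or more libraries, and this scale understates the change of low genes. All 10 genes were among them, with an estimated 68 to 6077 fragments behind a value. The endothelial identity of the libraries was checked with 12 endothelial markers. Every one of the 12 was detected in every library, with a summed FPKM of 2639 to 3446. Selp had an FPKM of 7.87 and 5.20 in type I ECs and of 313 to 657 in the other 4 libraries, and Ly6c1 was at 99.6 and 59.7 in type III ECs against 351 to 1009.8 elsewhere, in the direction of the labels. Pecam1, which encodes CD31, was at 496 to 867, and Ly6c2, a near copy of Ly6c1, at 0.452 to 4.80. The 2 proteins gated against were also looked up by their genes. Ptprc, which encodes CD45, was at 10.6 and 2.88 in type I ECs, 6.05 and 4.47 in type II ECs and 28.9 and 7.81 in type III ECs, and Epcam was at 0.417 to 4.32.

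Of the 10 genes, 7 lie on chromosome 17 in the MHC, B2m lies on chromosome 2, and Psmb10 and Nlrc5 lie on chromosome 8. The genes of 4 of them sit side by side in the mm9 assembly, in the order Psmb9 (chr17:34319044-34324275, minus strand), Tap1 (chr17:34324501-34334170, plus strand), Psmb8 (chr17:34335140-34338399, plus strand) and Tap2 (chr17:34341424-34353266, plus strand). Psmb9 and Tap1 point away from each other and are 225 bases apart in the deposited coordinates, Tap1 and Psmb8 are 969 bases apart, and Psmb8 and Tap2 are 3024 bases apart. In the RefSeq promoter windows (250 bases before to 50 after a start, GRCm38.p6 assembly), which held 8 of the 10 genes, the windows of Psmb9 and Tap1 shared 275 of 300 bases. Tap2 and Nlrc5 had no entry.

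The upstream sequences of the 2 heavy chain genes and of B2m are shown for description, as the genes whose ratios are given further on. The heavy chains kept a nearly fixed ratio to each other. The ratio of B2m to them differed between the replicates of every subset. Any part of the upstream sequences in these ratios was not tested. Each sequence is 250 bases, 5′ to 3′ on the strand of the gene. Capitals mark an NF-kB site spelled GGGGATTCC in H2-K1 (chr17:34000348-34000597, minus strand) and H2-D1 (chr17:35262844-35263093, plus strand), and the core of an interferon-stimulated response element spelled GAAANNGAA in B2m (chr2:122147437-122147686, plus strand). Each element was searched by this exact spelling only, so variant spellings are left unmarked. The marks therefore do not show that a gene lacks either element.
H2-K1: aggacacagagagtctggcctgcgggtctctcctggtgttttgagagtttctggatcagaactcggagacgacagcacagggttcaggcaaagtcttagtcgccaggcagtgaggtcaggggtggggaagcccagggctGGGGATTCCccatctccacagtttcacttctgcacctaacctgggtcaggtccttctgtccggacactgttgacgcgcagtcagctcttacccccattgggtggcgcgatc
H2-D1: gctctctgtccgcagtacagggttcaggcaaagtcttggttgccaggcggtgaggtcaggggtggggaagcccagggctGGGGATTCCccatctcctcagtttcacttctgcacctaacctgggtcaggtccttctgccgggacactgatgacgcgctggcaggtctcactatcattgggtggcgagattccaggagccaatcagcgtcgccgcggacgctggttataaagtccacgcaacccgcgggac
B2m: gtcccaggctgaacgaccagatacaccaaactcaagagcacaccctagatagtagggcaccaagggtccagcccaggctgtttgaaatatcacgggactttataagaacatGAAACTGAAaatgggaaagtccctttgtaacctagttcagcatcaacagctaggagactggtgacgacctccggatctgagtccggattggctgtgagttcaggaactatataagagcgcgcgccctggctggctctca
These coordinates belong to GRCm38.p6 and are not those of the mm9 values. The NF-kB site began 111 bases before the start shown for H2-K1, 125 bases before the other start listed for that gene, and 171 bases before the start in H2-D1. It stood in 82 of 32851 promoter windows (0.250%). Set side by side at this site without gaps, the 2 upstream sequences matched at 166 of 190 bases (87.4%), with 47 identical bases in a row around the site. The interferon element of B2m began 139 bases before its start, and 8.56% of all windows held one. A CCAAT box, the letters bound by NF-Y, was in 6 of the 8 windows against 37.4% of all, and TGACG, part of the element that binds CREB and ATF factors, was in 5 of 8 against 20.8%. Tap1 and Psmb9 count in both, with the same bases of their shared stretch. These are matches of letters, searched on both strands with overlaps allowed, and binding was not measured.

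**Figure D1:**
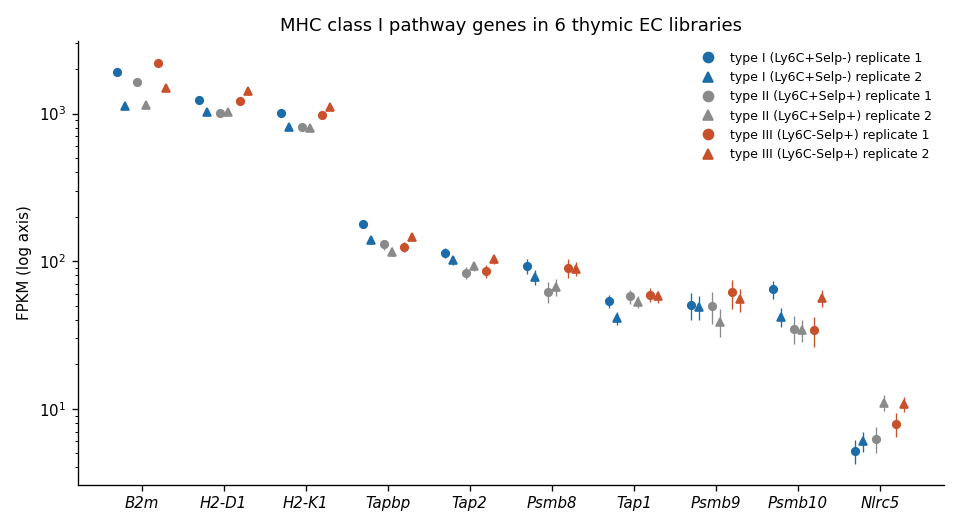
FPKM (log axis) of the 10 class I pathway genes in 6 thymic EC libraries, with circles for replicate 1, triangles for replicate 2, blue for type I, grey for type II and red for type III ECs; bars are the deposited 95% intervals of each library. B2m, H2-D1 and H2-K1 lie at 795 to 2203, the other genes of the pathway at 34.0 to 178, and Nlrc5 at 5.19 to 10.9, with the subsets close together in each gene.

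The heavy chains and their light chain were among the most abundant transcripts of these ECs. H2-K1 (chr17:34132957-34137278 in mm9, minus strand), a classical heavy chain, had an FPKM of 1002 and 816 in replicates 1 and 2 of type I ECs, 807 and 795 in type II ECs and 974 and 1109.7 in type III ECs. H2-D1 (chr17:35400039-35404442, plus strand), the other classical heavy chain of this strain, had 1239 and 1021, then 1006 and 1022, then 1219.9 and 1413 in the same order. For both genes the type I and type III libraries overlapped, and both type III libraries lay above both type II libraries. B2m (chr2:121973423-121978818, plus strand), the light chain that every class I heavy chain needs, had 1916 and 1118 in type I ECs, 1637 and 1139.8 in type II ECs and 2203 and 1497 in type III ECs. B2m was higher in replicate 1 than in replicate 2 of every subset, and its subsets overlapped in all 3 comparisons. In each library these 3 genes stood at percentile 99.9 or above among all genes tested and together held 1.29% to 1.48% of the summed FPKM, and all 10 genes held 1.47% to 1.67%.

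The ratio of H2-D1 to H2-K1 varied least of the ratios examined. It was 1.24 and 1.25 in type I ECs, 1.25 and 1.29 in type II ECs and 1.25 and 1.27 in type III ECs. The ratio of B2m to the sum of both heavy chains was 0.855, 0.903 and 1.00 in the 3 libraries numbered 1, and 0.608, 0.628 and 0.593 in the 3 numbered 2. It therefore separated the libraries by replicate number and not by subset. On the deposited FPKM, sums of all marker lists of other cells except the mesenchymal one were also higher in the library numbered 1 of each subset. Unlike the B2m ratio, these sums depend on the scale of the libraries, and they were not rescaled. Scale factors from median ratios were 1.187, 1.028 and 1.167 in the libraries numbered 1, and 0.847, 0.911 and 0.986 in those numbered 2. For 8 thymic epithelial markers the sum was 138, 85.0 and 100.9 in the libraries numbered 1 against 77.3, 55.9 and 36.3 in those numbered 2. The B cell sums ran from 0.24 to 14.6 and the lymphatic sums from 9.85 to 30.1. The summed FPKM of 13 dendritic cell and macrophage markers was 758, 545 and 1618 in the libraries numbered 1 against 197, 326 and 559.8 in those numbered 2, and that of 14 thymocyte markers was 169, 116 and 253 against 55.3, 76.9 and 116. Genes of the MHC class II pathway made up most of the dendritic cell and macrophage sum in every library. In the dendritic cell and macrophage list, Xcr1 was listed at 0 in type I replicate 2 and type II replicate 1, and in the thymocyte list Ptcra was listed at 0 in type I replicate 2 and both type II libraries. The dendritic cell and macrophage sum was 559.8 in type III replicate 2 and 545 in type II replicate 1. The thymocyte sum was 116 in both, and their B2m ratios were 0.593 and 0.903. This pair of libraries was picked for description after the values were seen. The sum of 8 mesenchymal markers was higher in replicate 1 of type I and type II ECs (602 against 269, and 682 against 401.5) and not of type III ECs (204 against 218). The part of these cells in the B2m ratio was not tested. In bulk RNA such as this, fewer cells of a type and less RNA per cell cannot be told apart.

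The transporter and its bridge to the heavy chain were expressed well below the chains themselves. Tap1, a subunit of the peptide transporter, had an FPKM of 53.9 and 41.2 in type I ECs, 57.7 and 53.2 in type II ECs and 59.3 and 57.7 in type III ECs. Tap2, its partner subunit, had 114 and 102, then 83.1 and 92.4, then 85.5 and 103. Tapbp (chr17:34056423-34066235, plus strand), which encodes tapasin, the bridge between the transporter and the heavy chain, had 178 and 139, then 130.0 and 116, then 125 and 146. Tap1 was lowest in type I replicate 2, and both type III libraries exceeded both type I libraries. Tap2 and Tapbp pointed the other way, with both type I libraries above both type II libraries. The Tap2 to Tap1 ratio was thus 2.11 and 2.47 in type I ECs against 1.44 and 1.74 in type II ECs and 1.44 and 1.79 in type III ECs. This ratio was chosen for description after its values were seen, and it was not tested.

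The 3 catalytic subunits of the immunoproteasome had levels close to those of the transporter. Psmb8, the subunit with chymotrypsin-like activity also known as LMP7, had an FPKM of 92.5 and 78.3 in type I ECs, 62.3 and 67.1 in type II ECs and 90.1 and 88.6 in type III ECs. Psmb9, also known as LMP2, had 50.3 and 49.2, then 49.6 and 39.0, then 61.4 and 55.2. Psmb10 (chr8:108459628-108462292, minus strand), also known as MECL-1, had 64.5 and 42.1, then 34.9 and 34.1, then 34.0 and 56.2. Type II ECs held the lowest Psmb8 values, with both libraries below those of the other subsets. Psmb9 was higher in both type III libraries than in any other, and Psmb10 was the least even of the 3, its type III replicates being the lowest and the next to highest of all 6 libraries. Nlrc5 (chr8:96996663-97051172, plus strand), the transactivator, was the lowest of the 10 genes, with 5.19 and 6.05 in type I ECs, 6.28 and 10.9 in type II ECs and 7.90 and 10.8 in type III ECs. Both type I libraries lay below the other 4, and replicate 2 exceeded replicate 1 in every subset.

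Ordered by mean level over the 6 libraries, the genes ran from B2m at 1585 through H2-D1 at 1153, H2-K1 at 917, Tapbp at 139, Tap2 at 96.6, Psmb8 at 79.8, Tap1 at 53.8, Psmb9 at 50.8 and Psmb10 at 44.3 to Nlrc5 at 7.86. Among neighbours in this order, ranges over the libraries were separate for H2-K1 and Tapbp, which differed 6.60-fold, for Tapbp and Tap2, which differed 1.44-fold, for Psmb8 and Tap1, which differed 1.48-fold, and for Psmb10 and Nlrc5, which differed 5.63-fold. The ranges of B2m and H2-D1, of H2-D1 and H2-K1, of Tap2 and Psmb8, of Tap1 and Psmb9, and of Psmb9 and Psmb10 overlapped. Within single libraries, B2m exceeded H2-D1 and H2-D1 exceeded H2-K1 in 6 of 6. The coefficient of variation over the 6 libraries was 12.2% for Tap2 and 12.3% for Tap1 at the low end and 29.5% for Psmb10 and 31.8% for Nlrc5 at the high end. This order depended on the scale of the libraries. With scaling by median ratios, Tap1 was lowest at 10.4% and Nlrc5 highest at 37.5%, Tap2 was at 17.6%, and B2m went from 27.0% to 14.9%.

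Type III ECs were first compared with type I ECs, the subsets that differ in both sort markers. None of the 10 had an adjusted p under 0.05 in limma, where 4.14% of all genes tested did (245 higher and 240 lower), and none had an unadjusted p under 0.05, where 14.1% did. The log2 fold changes ran from -0.25 to 0.63, with 7 genes higher (57.4% of all genes were) and 3 lower, and a median of 0.21 beside 0.08 for all genes. For H2-K1, the mean FPKM was 1042 ± 95.9 (SD, n = 2) in type III ECs and 909 ± 132 (SD, n = 2) in type I ECs, a log2 fold change of 0.20 with a 95% interval of -0.33 to 0.73. H2-D1 gave 0.22 (-0.31 to 0.75) and B2m 0.31 (-0.46 to 1.08). As folds, these intervals ran from 0.798 to 1.66 for H2-K1, from 0.807 to 1.69 for H2-D1 and from 0.727 to 2.12 for B2m.

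Nlrc5 had the largest difference of this comparison, with 9.36 ± 2.06 (SD, n = 2) against 5.62 ± 0.607 (SD, n = 2) FPKM, a log2 fold change of 0.63 (-0.13 to 1.4, limma adjusted p = 0.49). Tap1 gave 0.31 (-0.24 to 0.85), Psmb9 0.22 (-0.32 to 0.76) and Psmb8 0.07 (-0.44 to 0.58). Tap2 at -0.19 (-0.71 to 0.33), Tapbp at -0.22 (-0.76 to 0.32) and Psmb10 at -0.25 (-0.96 to 0.46) were on the other side of 0, and all 10 intervals held 0. Both type III libraries lay above both type I libraries for Tap1, Psmb9 and Nlrc5, 3 of 10 genes, where 20.7% of all genes did so, and no gene had both libraries below, where 17.1% did. After scaling the libraries by median ratios, both lay above for 1 gene, Tap1 (22.3% of all genes), and both lay below for 1, Tapbp (23.1%). The median size of the differences was 0.22 for the 10 genes and 0.31 for all genes.

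**Figure D2:**
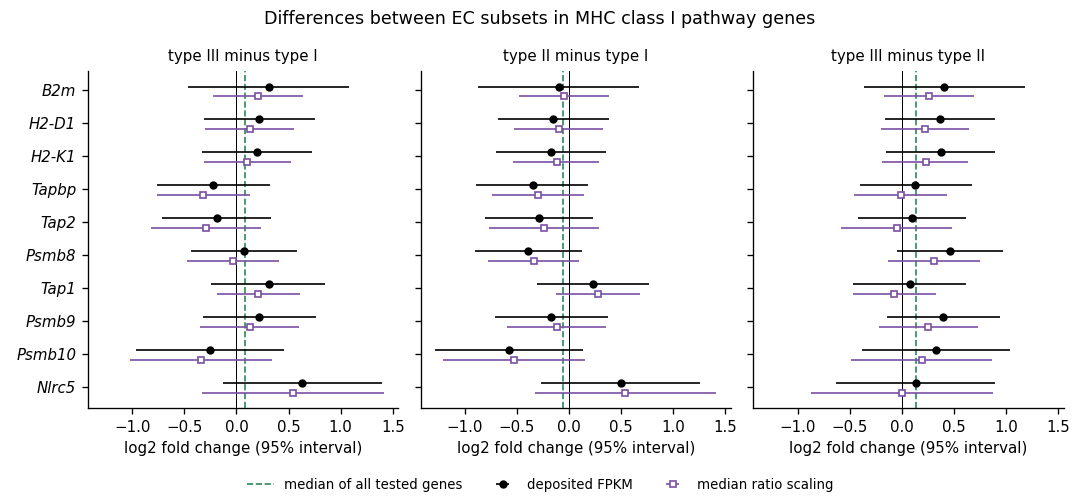
Log2 fold changes (x axis, with 95% intervals from limma) of the 10 genes in the 3 comparisons, on the deposited FPKM (black circles) and after scaling the libraries by median ratios (purple squares), with a dashed line at the median of all genes tested. Every interval holds 0, the widest differences being 0.63 for Nlrc5 on the left and -0.58 for Psmb10 in the middle.

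Type II ECs, which share Ly6C with one subset and Selp with the other, were set against type I ECs. Again none of the 10 genes passed in limma, where 0.393% of all genes did, and none had an unadjusted p under 0.05, where 7.48% did. Nlrc5 at 0.50 (-0.27 to 1.26) and Tap1 at 0.23 (-0.31 to 0.77) were on the side of type II ECs on the log2 scale (43.3% of all genes were), and the other 8 genes were on the side of type I ECs, with a median of -0.17 over the 10 and of -0.06 over all genes. Psmb10 had the largest difference, with an FPKM of 34.5 ± 0.598 (SD, n = 2) against 53.3 ± 15.8 (SD, n = 2), a log2 fold change of -0.58 (-1.29 to 0.13, limma adjusted p = 0.77). Psmb8 gave -0.39 (-0.90 to 0.12), Tapbp -0.35 (-0.89 to 0.18) and Tap2 -0.29 (-0.81 to 0.23). Closer to 0 were H2-K1 at -0.17 (-0.70 to 0.35), Psmb9 at -0.17 (-0.71 to 0.37), H2-D1 at -0.15 (-0.68 to 0.38) and B2m at -0.10 (-0.87 to 0.67). H2-K1, Tap2, Tapbp, Psmb8 and Psmb10 had both type II libraries below both type I libraries, 5 of 10 genes where 20.6% of all genes did, and Nlrc5 alone had both above, where 13.0% did. After scaling the libraries by median ratios, both lay below for 3 genes, Tapbp, Psmb8 and Psmb10 (21.4% of all genes), and both lay above for 1, Tap1 (19.3%).

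By their gates, type III and type II ECs differ in Ly6C alone. Selp itself was at 526 and 657 FPKM in type III ECs against 313 and 416 in type II ECs. Its log2 fold change was 0.70 (0.08 to 1.32, limma adjusted p = 0.45). All 10 log2 fold changes of type III against type II were above 0 (63.7% of all genes were), from 0.08 for Tap1 to 0.46 for Psmb8, with a median of 0.35 beside 0.14 for all genes. None of the 10 passed in limma, where 0.222% of all genes did, and none had an unadjusted p under 0.05, where 9.99% did. Psmb8 was at 89.3 ± 1.02 (SD, n = 2) FPKM against 64.7 ± 3.38 (SD, n = 2), a log2 fold change of 0.46 (-0.05 to 0.97, limma adjusted p = 0.55). H2-K1 gave 0.38 (-0.15 to 0.90), H2-D1 0.37 (-0.16 to 0.90), B2m 0.41 (-0.36 to 1.18) and Psmb9 0.40 (-0.14 to 0.94). Psmb10 followed at 0.33 (-0.38 to 1.04), and Nlrc5 at 0.14 (-0.63 to 0.90), Tapbp at 0.13 (-0.40 to 0.67), Tap2 at 0.10 (-0.42 to 0.62) and Tap1 at 0.08 (-0.47 to 0.62) were the smallest. Both type III libraries lay above both type II libraries for H2-K1, H2-D1, Tap1, Psmb8 and Psmb9, 5 of 10 where 27.7% of all genes did, and none had both below, where 13.3% did. The shared direction depended on the scale of the libraries. Scaling by median ratios moved the median of all genes from 0.14 to 0.01 and left 7 of the 10 genes above 0 (51.2% of all genes), with a median of 0.21 and with Tap1, Tap2 and Tapbp at -0.07, -0.05 and -0.01, and both type III libraries then lay above both type II libraries for 2 genes, Psmb8 and Psmb9 (20.0% of all genes). The 3 comparisons share libraries and are not independent of each other.

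Each immunosubunit was then set against the standard subunit that it replaces, within a library, since FPKM is per length. The ratio of Psmb8 to Psmb5 was 1.51 and 3.86 in type I ECs, 1.77 and 2.44 in type II ECs and 1.93 and 2.23 in type III ECs, above 1 in 6 of 6 libraries. Psmb9 to Psmb6 was 0.945 and 1.42, then 1.5 and 1.63, then 1.5 and 1.6. Psmb10 to Psmb7 was 0.811 and 1.33, then 0.528 and 0.609, then 0.343 and 0.686. The Psmb8 ratios of the subsets overlapped, with the extremes of all 6 libraries in the type I replicates, where Psmb5 itself was at 61.1 and 20.3 FPKM. Both type I libraries were the lowest for Psmb9 to Psmb6 and the highest for Psmb10 to Psmb7.

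On the log2 scale, Psmb9 to Psmb6 was higher by 0.41 in type III and by 0.42 in type II ECs than in type I ECs. Psmb10 to Psmb7 differed by -1.08 and -0.85 in the same comparisons. An exact two-sided permutation test gave p = 0.33 for these 4 differences, the smallest p that 2 libraries against 2 allow, and 0.74 after Benjamini-Hochberg adjustment over the 9 ratio comparisons, and p = 1.0 for the other 5. The design cannot pass 0.05 in this test. The standard subunit varied too, as Psmb7 was at 79.5 and 31.7 FPKM in type I ECs, 66.1 and 56.0 in type II ECs and 99.3 and 81.9 in type III ECs.

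**Figure D3:**
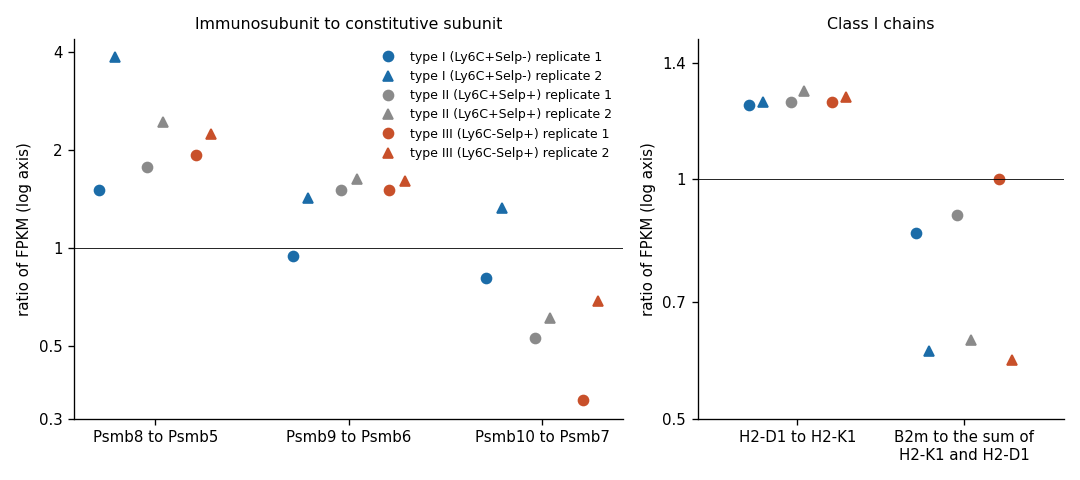
Ratios of FPKM (log axes) within each library, on the left of each immunosubunit to its standard counterpart and on the right of the class I chains, with the symbols of the plot of levels (circles replicate 1, triangles replicate 2). H2-D1 to H2-K1 stays at 1.24 to 1.29, B2m to the heavy chains splits by replicate number into 0.855 to 1.00 and 0.593 to 0.628, and Psmb10 to Psmb7 is highest in both type I libraries.

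The genes around the pathway were followed in 9 lists, which held 117 genes tested. Between type III and type I ECs, 1 rose and 1 fell (1.71%, where 4.14% of all genes passed), and 14 of the 117 had an unadjusted p under 0.05, where 14.1% of all genes did. In both comparisons with type II ECs none passed in limma, with 9 at an unadjusted p under 0.05 against type I ECs (7.48% of all genes) and 6 in type III against type II ECs (9.99% of all genes). The gene that rose was Irf8, an interferon regulatory factor best known from myeloid cells, with an FPKM of 33.2 and 14.9 in type I ECs, 40.4 and 34.0 in type II ECs and 75.1 and 62.2 in type III ECs. No subset overlapped another, and its log2 fold change was 1.57 (0.77 to 2.38, limma adjusted p = 0.043). The call was held in 6 of 15 alternatives. It was lost with no filter on low values (0.43), without limma's trend (0.088), with only the subsets compared (0.056) and with 0.1 in place of 1 added (0.053, all limma adjusted p). It was also lost without type I replicate 2 (log2 fold change 1.02), either type II replicate (1.57) or either type III replicate (1.44 and 1.71). Dendritic cells also express Irf8, and their markers together with those of macrophages summed to an FPKM of 758 and 197 in type I ECs and to 1618 and 559.8 in type III ECs. Genes of the MHC class II pathway made up most of these sums, which are therefore no count of such cells. The sort gated against CD45, and Ptprc, which encodes it, was at 10.6 and 2.88 FPKM in type I ECs and at 28.9 and 7.81 in type III ECs. The part of dendritic cells and macrophages in the Irf8 level was not tested.

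The gene that fell was Oas2, an interferon-induced sensor of double-stranded RNA. It had an FPKM of 9.91 and 7.17 in type I ECs and 1.49 and 1.91 in type II ECs, and in type III ECs it was listed at 0 and at 0.0706. The fitted log2 fold change was -3.19 (-3.99 to -2.39, limma adjusted p = 0.0015, 0.075 with no filter on low values), and it reached -6.03 with 0.1 in place of 1 added before the logarithm. Of 21 interferon-stimulated genes tested, Oas2 was the 1 that passed, and the list had a median of 0.07. The most abundant of them, the chemokine gene Cxcl10, was at 331 and 192 in type I ECs, 519 and 378 in type II ECs and 438 and 388 in type III ECs, a log2 fold change of 0.71 between type III and type I (0.02 to 1.4, limma adjusted p = 0.34). Among 7 interferon receptors and their kinases none passed in limma and 2 had an unadjusted p under 0.05, with a median of 0.18. Jak1, a kinase of both interferon receptor types, gave 0.88 (0.32 to 1.43, limma adjusted p = 0.098), and Ifngr1, a chain of the interferon-gamma receptor, gave -0.06 (-0.76 to 0.63). Irf1, which is itself induced by interferon and drives class I genes, was the most abundant of the 19 transcription factors, at 211 to 364 FPKM, with -0.38 (-0.99 to 0.23) where the list had a median of 0.15.

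Among 16 other class I heavy chain genes tested, none passed in limma, 4 had an unadjusted p under 0.05 between type III and type I ECs, and their median was 0.53, the highest of the 9 lists. The most abundant were H2-Q4 at 223 to 303 FPKM, H2-T23, which encodes the non-classical Qa-1, at 151 to 254, and H2-Q8 at 164 to 275. Their log2 fold changes were 0.17, 0.30 and 0.40, with intervals of -0.36 to 0.69, -0.30 to 0.89 and -0.20 to 1.01. The Q genes resemble each other closely, so that reads can be split between them and their single values are uncertain. H2-D1 shared 93 of its 2003 windows of 100 bases, the read length, with 10 other genes in the GENCODE M1 transcripts (4.64%), most with H2-Q2, and H2-K1 and the 7 other genes examined shared none. Nlrc5 was not in that set of transcripts.

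Neither the peptide-loading nor the proteasome lists held a gene that passed. The 13 genes of loading and trimming had a median of 0.25 between type III and type I and 1 unadjusted p under 0.05, and the most abundant were the chaperones Hspa5 at 0.61 (0.05 to 1.17, limma adjusted p = 0.30), Calr at 0.54 (-0.07 to 1.16) and Pdia3 at 0.51 (-0.24 to 1.27). For the 3 standard catalytic subunits the median was 0.28, with Psmb7 at 0.83 (-0.04 to 1.70), Psmb5 at 0.28 (-0.72 to 1.27) and Psmb6 at -0.19 (-0.86 to 0.48). The 11 other genes of the proteasome core had a median of 0.27 and the 18 of its regulatory cap a median of 0.03, with no unadjusted p under 0.05 for this pair of subsets in either list, and the most abundant were Psmb4 at 62.9 to 97.5 FPKM in the core and Psmc3 at 25.1 to 51.2 in the cap. Among 9 other activators and assembly factors the median was -0.11. Psme2, which with Psme1 forms the interferon-inducible PA28 activator, was at 115 and 81.7 FPKM in type I ECs, 74.3 and 61.0 in type II ECs and 48.9 and 59.5 in type III ECs. Its subsets did not overlap, and its log2 fold change between type III and type I was -0.83 (-1.43 to -0.24, limma adjusted p = 0.15, the 1 unadjusted p under 0.05 of its list). Psme1 gave -0.15 (-0.71 to 0.42).

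**Figure D4:**
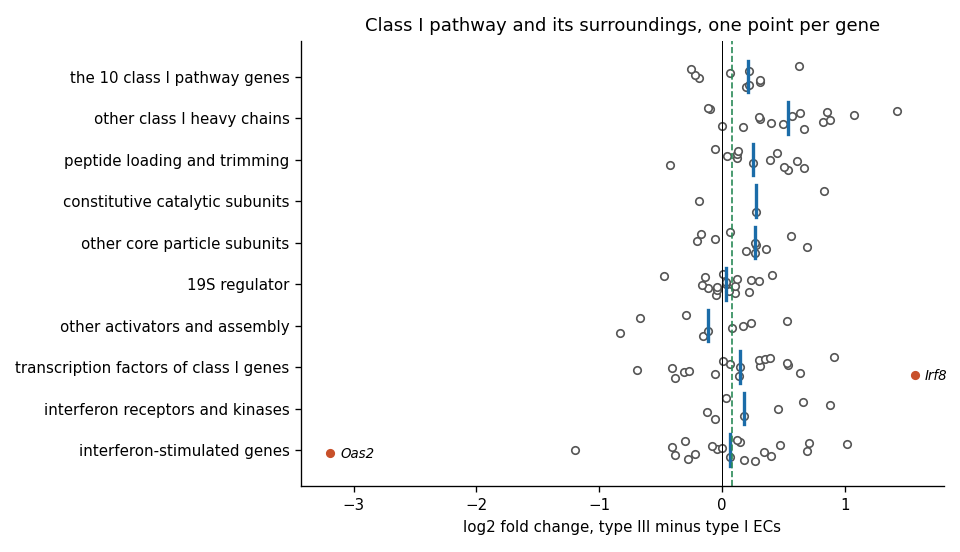
Log2 fold changes between type III and type I ECs (x axis), 1 point per gene tested, for the 10 genes and 9 lists around them; blue bars are medians, the dashed line is the median of all genes and red points passed limma's adjusted p of 0.05. Irf8 at 1.57 and Oas2 at -3.19 are the red points, and the 10 genes lie between -0.25 and 0.63.

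Genes of other cell types were followed because nearly all nucleated cells express class I. Between type III and type I ECs the median log2 fold change was 1.14 over 10 dendritic cell and macrophage markers tested, 0.92 over 12 thymocyte markers and 0.96 over 3 B cell markers, and none of these passed in limma, with 5, 1 and 1 at an unadjusted p under 0.05, where 14.1% of all genes were. Their median in the comparison of type III with type II ECs was 1.23, 1.00 and 1.25. Among the B cell markers tested, Ms4a1 was listed at 0 in both type II libraries. Of 8 mesenchymal markers Pdgfrb fell (-1.85, limma adjusted p = 0.013, but 0.22 with no filter on low values, 0.073 without type I replicate 1 and 0.11 without type III replicate 1), with sums of 602 and 269 in type I ECs and 204 and 218 in type III ECs, and of 8 thymic epithelial markers Dll4, which endothelial cells also express, fell (-1.41, limma adjusted p = 0.010, but 0.054 without type I replicate 2 and 0.086 and 0.076 without type III replicates 1 and 2), with sums of 36.3 to 138. Psmb11, the catalytic subunit of the thymoproteasome of cortical epithelium, was at 0.32 to 3.63 FPKM, and it was named after its values were seen. Of 12 endothelial markers, Eng rose (1.10, limma adjusted p = 0.040, held in 4 of 15 alternatives), and Cldn5 (-3.70) and Kdr (-1.49) fell. With no filter their limma adjusted p was 0.062 and 0.086, and that of Kdr was 0.082 and 0.058 without type III replicates 1 and 2. Cldn5 also fell between type III and type II ECs (-2.07, limma adjusted p = 0.041, but 0.47 with no filter and 0.056 with only the subsets compared). Of 4 lymphatic markers none passed between type III and type I ECs, with 3 at an unadjusted p under 0.05 and sums of 9.85 to 30.1, Lyve1 being listed at 0 in both type I libraries and type II replicate 1. The part of other cells in the class I levels was not tested.

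As a measure of likeness, the centred log2 profile of each gene over the 6 libraries was compared with the mean profile of the 10 genes, which was 0.15 and -0.14 in type I ECs, -0.13 and -0.15 in type II ECs and 0.07 and 0.20 in type III ECs. Among 4187 other genes with a mean FPKM of at least 10, Tle3, Slc39a7 and Cyb5r3 were nearest, at root mean square distances of 0.019, 0.03 and 0.034, where the median gene was at 0.277. Of the 10 genes themselves, H2-K1 at 0.045 and H2-D1 at 0.052 were closest to the mean profile that they are part of, and B2m at 0.292 and Nlrc5 at 0.385 were farthest.

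Once scaled by median ratios, the libraries numbered 1 and 2 differed in the same direction in every subset for 8 of the 10 genes. Psmb9 and Psmb10 were the exceptions, and of the 8 B2m was the gene with the higher values in replicate 1. On the deposited FPKM, B2m, Tap1 and Psmb9 were higher in replicate 1 of every subset and Nlrc5 was lower, while the other genes had mixed directions. After scaling by median ratios, replicate 1 minus replicate 2 was 0.29, 0.35 and 0.31 on the log2 scale for B2m in the 3 subsets and -0.60, -0.87 and -0.62 for Nlrc5. It was -0.32, -0.32 and -0.51 for Tap2 and -0.24, -0.28 and -0.22 for Psmb8. The mean difference of Nlrc5 stood at percentile 2.66 of all genes tested, that of Tap2 at percentile 13.5 and that of B2m at percentile 82.0. For Nlrc5 the gap between replicates was at least 0.60 in each subset, against subset differences of at most 0.54 on the same scale, and the sources used here do not say what the numbers stand for.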

How the data were processed

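RNA of CD31+CD45-EpCAM- thymic ECs sorted by Ly6C and Selp was sequenced in 2 libraries per subset, with groups and replicate numbers taken from the sample labels. The authors trimmed 100-base paired reads, mapped them to mm9 and deposited 1 table of FPKM values per library with 95% intervals. The submitters' processing notes name CASAVA 1.8, TopHat2 2.0.10, Cufflinks 2.1.1 and Cuffdiff. The gene annotation, the treatment of reads that map to several genes and the use of strand are not given in the sources used here. This bears on B2m, which lies within Patl2 on the opposite strand (listed at 0 in every library), and on Tap1 and Psmb9, whose GENCODE models overlap.

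From the deposited FPKM, log2(FPKM + 1) was fitted with limma 3.58.1 in R 4.3.3 (eBayes with a trend), all 6 libraries in 1 fit with a mean per subset. The values were not rescaled. A gene was kept if it reached an FPKM of 1 in 2 or more libraries (11717 of 24457), and Benjamini-Hochberg adjustment ran over all genes kept. The 95 spike-in and reporter entries per library were left out, and Rn45s (4.74% to 6.57% of an FPKM sum of 221458 to 300932) stayed in. Fragments behind a value were read back from the interval bounds, which cover counting error only, and 3 fragments corresponded to an FPKM of 0.324 to 0.553 in the median gene. Ratios of single genes were tested by exact permutation over libraries (scipy 1.17.1, Python 3.11.15).

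The 10 genes and the gene lists were chosen with earlier results of these data known. Named are all 10 genes, and of each list, per comparison, the genes that passed or, where none did, up to 3 of the highest mean FPKM, with the sort markers and the 3 genes nearest in profile. Ptprc, Epcam and the markers listed at 0 were named after their values were seen. Deposited starts count from 0 and are printed from 1. Alternatives were pseudocounts of 0.1 and 0.5, no filter or an FPKM of at least 5, quantile normalization, median ratio scaling, limma without its trend, only the subsets compared, the replicate number as a block, and each library left out in turn. The values of 1 cell type marker are not reported here.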

Additional observations from a re-analysis of the deposited data

Results flagged for a closer look

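Each table lists fluorescent reporter sequences beside the genes, although the labels call the mice wild type, and these entries were used in no comparison. The mRFP entry was above the FPKM that 3 fragments give in all 6 libraries, and that is what marked it. It was at 18.2 and 1.83 FPKM in replicates 1 and 2 of type I ECs, where 3 fragments correspond to 1.72 and 1.37. It was at 23.7 and 5.31 in type II ECs (2.29 and 1.45) and at 28.3 and 3.23 in type III ECs (2.48 and 1.38). About 32, 31 and 34 fragments stood behind the values of the libraries numbered 1 and 4, 11 and 7 behind those numbered 2, so that the entry was higher in replicate 1 of every subset, as B2m was relative to the heavy chains. The GFP entry passed the same limit in type III replicate 2 alone, at 2.37 FPKM from 5 fragments against a limit of 1.42. No cause was tested.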

How the results depend on the processing

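None of the 30 fold changes of the 10 genes passed limma's threshold in any of 15 alternatives (450 values, smallest adjusted p 0.17), and 20 values changed sign, 10 of them with a library left out, all from main values of at most 0.33 in size. Under quantile normalization and median ratio scaling, Psmb8 turned to -0.05 and -0.03 between type III and type I ECs, and between type III and type II ECs Tap1 turned to -0.09 and -0.07, Tap2 to -0.09 and -0.05 and Tapbp to -0.03 and -0.01. Under quantile normalization alone, H2-K1 turned to 0.03 between type II and type I ECs and Nlrc5 to -0.01 between type III and type II ECs. With 1 library left out, type III against type I gave -0.08 to 0.70 for B2m, -0.05 to 0.19 for Psmb8 and -0.60 to 0.11 for Psmb10. Type II against type I gave -0.49 to 0.29 for B2m, and type III against type II gave -0.04 to 0.23 for Tap2, -0.02 to 0.69 for Psmb10 and -0.22 to 0.49 for Nlrc5. The cause was not tested.

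The number of genes that passed among all genes, the background of the counts above, moved more. For type III against type I ECs it was 485, and 102 with no filter and 209 to 404 with 1 library left out. For type II against type I ECs it was 46 (38 higher, 8 lower), and 10 with no filter, 103 with quantile normalization, 95 with median ratio scaling (66 higher, 29 lower), 15 without the trend, 29 with only the subsets compared and 12 to 33 with 1 library left out. For type III against type II ECs it was 26 (11 higher, 15 lower), and 2, 90, 84 (23 higher, 61 lower), 10, 7 and 2 to 14 in the same order. The lowest counts came without type III replicate 1, type II replicate 2 and type III replicate 2 in turn.

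The labels number the libraries of each subset 1 and 2 and state no pairing. Deviations of same-numbered libraries correlated across 11717 genes at 0.199, 0.306 and 0.180. With the replicate number as a block, 971, 183 and 229 genes passed in the 3 comparisons, none of them among the 10. The ratios were tested without it. With 2 libraries per subset, standard errors of the 10 genes were 0.22 to 0.34 on the log2 scale beside 0.35 for the median gene.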
